A study of Mus musculus with 12 samples.

Results

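Saa1, Saa2, Saa3 and Lcn2, 3 serum amyloid A genes and the lipocalin-2 gene, were followed through the cell classes of 6 mouse mammary tumours. The authors' annotation had 9 classes in the Total libraries, of which 8 are named cell types and the ninth is Unknown. The 4 genes were taken as a named set, chosen with their levels in these libraries already known, so the levels below are a description and carry no test. All 4 were among the 19369 genes of the Total tables, and 3 of them, without Saa2, were among the 18574 genes of the CD45 tables. The tumours were grown in the mammary fat pad of female BALB/c mice aged 9 to 11 weeks from the 4T1 mammary carcinoma line or from cells derived from it. Clones E, EM1, EM2, EM3 and M each descend from a single 4T1 cell and were described by the series as spanning epithelial, intermediate and mesenchymal states; the sixth tumour came from the parental 4T1 line. Each group was 1 tumour, and each clone is a single isolate, so clone, animal and tumour cannot be told apart. Every tumour gave a Total library and a library of cells enriched with CD45 magnetic beads.

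The Total libraries held 38499899 to 122055131 unique molecular identifiers (UMIs) in 6709 to 13467 cells, and the CD45 libraries 28083101 to 57116299 UMIs in 6791 to 11024 cells. Libraries of Clones E and EM3 shared many droplet barcodes, as did those of Clones EM1 and EM2, and so did the Total and CD45 libraries of each tumour: such pairs had 818 to 1760 barcodes in common (12.2% to 19.1% of the smaller library), against 46 to 211 (0.686% to 1.92%) in the other 52 pairs. The barcodes therefore fall into 4 groups (Clones E and EM3, Clones EM1 and EM2, Clone M, parental 4T1), treated here as capture wells, and well and clone cannot be told apart in a comparison of Clone M with Clone E. Class names are those of the authors' annotation, and the markers of each class were high in it: granulocyte markers (S100a8, S100a9, Csf3r, Cxcr2, Retnlg) summed to 112490 to 182790 CPM (UMIs of a gene per 1000000 UMIs of the class in that library) in granulocytes, collagen-led fibroblast markers to 71168 to 160690 CPM in fibroblasts, and keratin-led epithelial markers to 2176 to 11040 CPM in tumour cells. Clone E stood apart in markers of other classes. Granulocyte markers summed to 1429 CPM in its tumour cells (102 to 523 CPM in the others), and macrophage markers to 7834 CPM in its fibroblast class (692 to 4020 CPM in the others).

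Serum amyloid A proteins are small apolipoproteins of high-density lipoprotein that the liver releases in the acute-phase response. Saa1 and Saa2 are the main hepatic genes, while mouse Saa3 is expressed largely outside the liver, in macrophages, adipose tissue and inflamed epithelia and stroma. Lipocalin-2, also called neutrophil gelatinase-associated lipocalin, binds bacterial iron-carrying siderophores, is stored in the specific granules of neutrophils and is secreted by inflamed epithelia. All 4 genes are known to respond to interleukin-1, interleukin-6 and tumour necrosis factor through NF-kB, C/EBP and STAT3.

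The promoters of the 4 genes are shown because these factors act there. The 3 Saa genes lie within 1 cluster on chromosome 7 (GRCm38): Saa3 at 46711998-46715700 on the minus strand, Saa1 at 46740497-46742980 on the minus strand and Saa2 at 46751790-46754313 on the plus strand, each with 4 exons. Lcn2 lies on chromosome 2 at 32384633-32388252 on the minus strand and has 6 exons. The runs below come from the RefSeq promoter table (GRCm38.p6; all 4 genes matched), read 5′ to 3′ on the gene's strand within the 250 bases before the RefSeq start. They stop before the first exon of the transcripts in the GENCODE basic set, so 43 bases were left out for Saa2, 24 for Saa3 and 58 for Lcn2. Capitals mark matches to TTGCNNAA, a C/EBP-type motif, and to an NF-kB-type motif, GGG and CC with any 5 bases between them, on either strand. They occupy chr7:46742981-46743230 (minus) for Saa1, chr7:46751583-46751789 (plus) for Saa2, chr7:46715701-46715926 (minus) for Saa3 and chr2:32387798-32387989 (minus) for Lcn2. RefSeq and GENCODE starts differ, and the Lcn2 run lies inside the gene's full GENCODE extent, where an alternative transcript outside the basic set starts further 5′ and has an exon that overlaps it.
Saa1: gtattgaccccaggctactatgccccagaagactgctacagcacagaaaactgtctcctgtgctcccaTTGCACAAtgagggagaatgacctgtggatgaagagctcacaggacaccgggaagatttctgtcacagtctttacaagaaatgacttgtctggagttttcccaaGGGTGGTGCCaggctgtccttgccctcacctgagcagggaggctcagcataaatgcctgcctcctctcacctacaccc
Saa2: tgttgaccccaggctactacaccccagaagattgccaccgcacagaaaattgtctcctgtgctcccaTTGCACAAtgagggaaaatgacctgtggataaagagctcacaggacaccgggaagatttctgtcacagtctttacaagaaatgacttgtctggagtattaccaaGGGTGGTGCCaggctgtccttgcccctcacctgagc
Saa3: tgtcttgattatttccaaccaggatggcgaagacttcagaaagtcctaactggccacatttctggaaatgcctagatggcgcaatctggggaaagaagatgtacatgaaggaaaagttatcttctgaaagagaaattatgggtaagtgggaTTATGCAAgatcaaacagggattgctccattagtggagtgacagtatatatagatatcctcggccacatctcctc
Lcn2: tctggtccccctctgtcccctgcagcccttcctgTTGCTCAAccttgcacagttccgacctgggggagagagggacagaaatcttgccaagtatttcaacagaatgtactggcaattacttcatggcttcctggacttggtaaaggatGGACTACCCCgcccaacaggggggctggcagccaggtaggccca
Motifs were searched in the full 250 bases before the RefSeq start, in the 4 genes and in 32851 RefSeq promoters alike, whether or not an exon overlaps them; every match in the 4 genes lies within the shorter runs printed. All 4 genes held a match to TTGCNNAA, as did 9.56% of the RefSeq promoters. It began 182 bases before the start in Saa1, 183 in Saa2, 99 in Saa3 (on the opposite strand) and 216 in Lcn2. The NF-kB-type motif, present in 45.8% of all promoters, was found in Saa1, Saa2 and Lcn2, beginning 78, 79 and 102 bases before the start. Those letters were not in the Saa3 window. TTCNNNGAA, a STAT-type motif (7.02% of promoters), and TATAAA (12.4%) were in none of the 4 windows. No motif overlapped another. A match describes letters and does not show a bound site.

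Saa1 and Saa2 are near-copies, which limits how far their counts can be read apart. Their coding sequences matched at 95.1% of positions (18 of 366 bases differed) and their promoters at 94.8%, whereas Saa3 matched Saa1 at 75.9% and Saa2 at 74.9% of aligned coding positions. Of the 317 windows of 50 bases in the Saa1 coding sequence, 47 (14.8%) occur unchanged in Saa2 and 9 (2.84%) in Saa3. The stretch that differs most, coding bases 90 to 149, is shown with its 7 differing bases in capitals.
Saa1: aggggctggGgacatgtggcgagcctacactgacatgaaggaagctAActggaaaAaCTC
Saa2: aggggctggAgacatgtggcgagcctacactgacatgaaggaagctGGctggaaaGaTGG
How the authors' counting divided reads between the 2 genes is not given in the sources used here, so the split of Saa1 and Saa2 UMIs is uncertain and their pattern is read from both together.

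**Figure D1:**
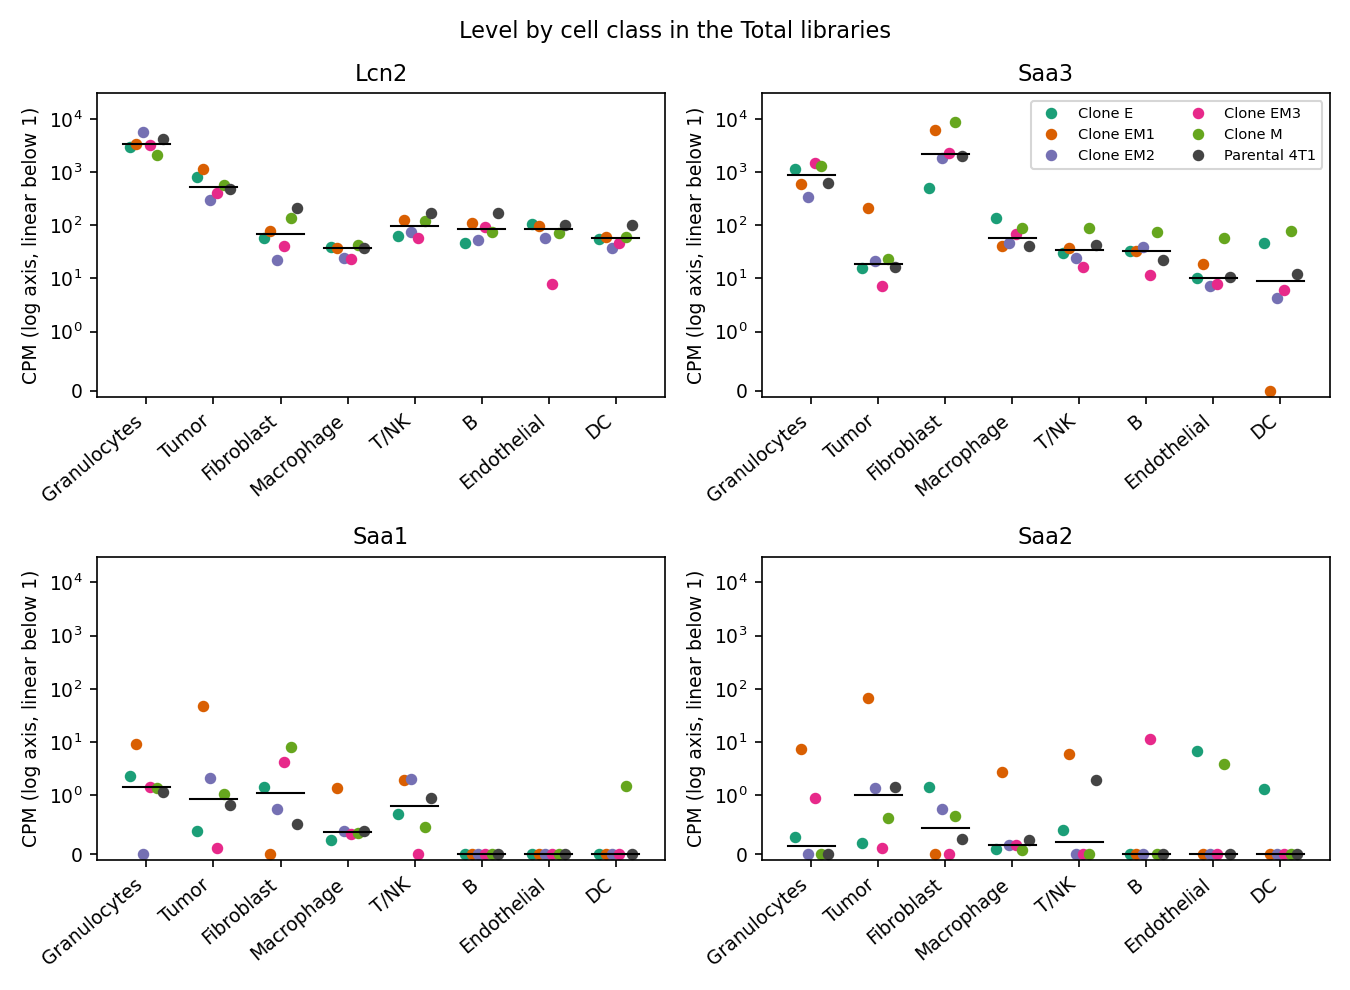
CPM of Lcn2, Saa3, Saa1 and Saa2 (y axes, log scale above 1) in the 8 named cell classes of the Total libraries, with 1 point per tumour and a line at the median of the 6 tumours. By the medians, Lcn2 was highest in granulocytes and next in tumour cells, Saa3 was highest in fibroblasts and granulocytes, and Saa1 and Saa2 stood above 10 CPM in Clone EM1 tumour cells, with a single Saa2 UMI in Clone EM3 B cells behind the other point above 10.

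Lcn2 was most abundant in granulocytes, with tumour cells next among the 8 named cell types of the Total libraries. In granulocytes of the Total libraries it stood at 2954 CPM in Clone E, 3443 in Clone EM1, 5562 in Clone EM2, 3176 in Clone EM3, 2107 in Clone M and 4247 in parental 4T1 (median 3309). In tumour cells it stood at 795 CPM in Clone E, 1132 in Clone EM1, 299 in Clone EM2, 406 in Clone EM3, 570 in Clone M and 481 in parental 4T1 (median 525). The granulocyte and tumour-cell levels did not overlap, and Clone EM2 combined the highest granulocyte level with the lowest tumour-cell level. The log2 ratio of granulocytes over tumour cells, with 10 CPM added to both, had a median of 2.41 (1.6 to 4.17) and was positive in 6 of 6 tumours. It was 1.56 when the CPM of single cells were averaged in place of summed UMIs.

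The other 6 named classes had median Lcn2 levels of 96.2 CPM (T/NK), 83.8 (endothelial), 83.4 (B), 69.0 (fibroblasts), 57.7 (DC) and 37.5 (macrophages). The macrophage range (23.5 to 43.4 CPM) lay below those of T/NK cells (57.3 to 171) and B cells (45.8 to 169), and the other ranges overlapped. Cells annotated as Unknown, over 30 in 3 tumours, stood closer to tumour cells, at 259 CPM of Lcn2 in Clone EM3 (44 cells), 457 in Clone M (61) and 386 in parental 4T1 (38), below the tumour cells of the same tumour in each. Their Saa3 stood at 45.4, 48.1 and 29.0 CPM in the same order, and Saa1 and Saa2 rested on 0 to 2 UMIs. Macrophage markers summed to 12872 to 23941 CPM in them, epithelial markers to 834 to 2410 and granulocyte markers to 1336 to 2393. To set these against RNA carried over from other cells, the Csf3r level of each class, relative to that of granulocytes, and its Csf3 level, relative to that of tumour cells, were used to scale the Lcn2 level of those cells. T/NK cells had 0.578 to 0.852 of the scaled amount, endothelial cells 0.0448 to 0.677 and macrophages 0.0770 to 0.428, so their Lcn2 was at or under this amount in 6 of 6 tumours. Fibroblasts had 0.323 to 1.68 of it, dendritic cells 0.66 to 1.25 and B cells 0.459 to 1.18, each above it in 2 of 6 tumours. Tumour cells, scaled by Csf3r alone, had 20 to 305 times the scaled amount. The amount counts all Csf3r and Csf3 of a class as carried over, so it is too high for a class that makes either gene. Whether these classes make them was not tested, so a level under the amount does not separate carried-over RNA from a class's own.

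Shares of cells with an Lcn2 UMI gave the same order once every cell was thinned to 500 UMIs. A median of 35.3% of granulocytes (30.5% to 39.6%) and 16.2% of tumour cells (10.6% to 29.8%) had a UMI, against 4.41% of T/NK cells and 2.45% of macrophages. Without thinning, the shares were 48.4% of granulocytes and 57.5% of tumour cells, the opposite order. Tumour cells were deeper (median 6421 to 15270 UMIs per cell, against 779.5 to 1460). Thinning left out 210 of 9375 granulocytes and 1 of 19340 tumour cells. Tumour cells held a median of 73.0% of all Lcn2 UMIs of the Total libraries (26.1% in the lowest tumour and 92.4% in the highest), and granulocytes 22.4% (5.66% to 64.8%).

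Within granulocytes, the Lcn2 level was higher in the cells that carried transcripts of specific-granule genes. Ltf (lactoferrin), Camp (cathelicidin) and Ngp are made while neutrophils mature in the marrow, and 6.25% to 13.1% of granulocytes had a UMI of any of them in a draw of 500 UMIs. Those cells had 8660 CPM of Lcn2 in Clone E, 10290 in Clone EM1, 14820 in Clone EM2, 9940 in Clone EM3, 7552 in Clone M and 15550 in parental 4T1. The remaining granulocytes had 1336, 1509, 1437, 1603, 1468 and 1513 CPM in the same order. The tumours thus differed by up to 15550 against 7552 CPM in the first set and hardly at all in the second. The median log2 ratio was 2.72 (2.36 to 3.36), and 2.58 (2.11 to 3.03) in the CD45 libraries. Cells with a granule UMI were deeper, at a median of 1532 to 2943 UMIs against 819 to 1424. They held more Lcn2 UMIs than the remaining granulocytes except in Clone M (4579 against 7586 in its Total library). Of the remaining granulocytes of the Total libraries, 26.4% (Clone E) to 34.9% (Clone EM1) had an Lcn2 UMI in the same draw.

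Saa3 had the opposite distribution among the same granulocytes. In cells with a granule UMI it stood at 525 CPM in Clone E, 175 in Clone EM1, 88 in Clone EM2, 410 in Clone EM3, 666 in Clone M and 24 in parental 4T1. In the remaining granulocytes it stood at 1328, 726, 466, 1705, 1367 and 755 CPM in the same order. Saa3 was lower in the granule-gene cells of all 6 tumours in both kinds of library. Its median log2 ratio was −2.01 in the Total libraries (−4.49 to −1.03) and −2.10 in the CD45 libraries (−3.62 to −0.80). The granulocyte marker Csf3r was also lower in these cells in every library (1483 against 2247 CPM in Clone E Total, 604 against 2060 in Clone EM2 Total). The share of all genes that differed in this split was not computed, so neither the Lcn2 nor the Saa3 difference is shown to be particular to its gene. Granulocytes with UMIs of both genes occurred about as often as the product of their shares: in Clone M, 269 cells against 269.6, and in Clone EM2, the tumour furthest below, 9 cells against 18.0.

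**Figure D2:**
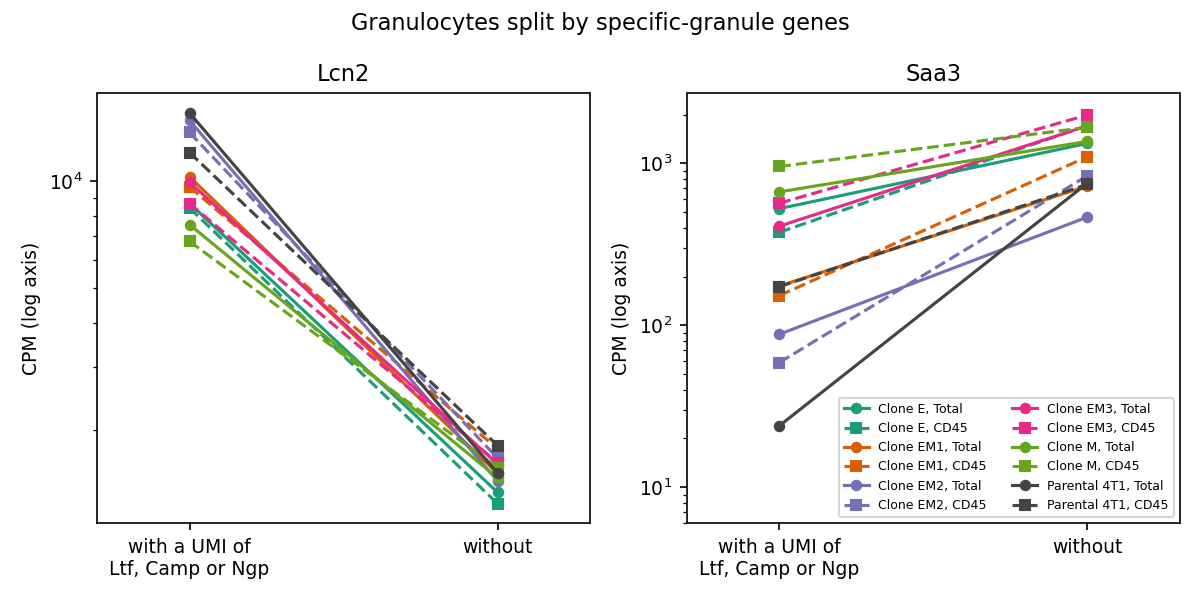
CPM (log axis) of Lcn2 and Saa3 in granulocytes with and without a UMI of Ltf, Camp or Ngp; lines join the 2 sets of 1 library, with circles and solid lines for Total libraries and squares and dashed lines for CD45 libraries. Every Lcn2 line falls, from 8660 to 1336 CPM in the Clone E Total library, and every Saa3 line rises, from 525 to 1328 CPM in that library.

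The CD45 libraries gave the same granulocyte levels to within a factor of 1.78. Lcn2 ranged from 2048 CPM in Clone M to 5055 CPM in Clone EM2 there, and was 0.834 to 0.986 of the Total value, lower in 6 of 6 tumours. Saa3 ranged from 617 to 1750 CPM and was 1.03 to 1.78 times the Total value, higher in 6 of 6. Total and CD45 libraries of a tumour are not separate animals. Granulocytes held 87.7% to 94.6% of Lcn2 UMIs in the CD45 libraries, whereas Saa3 UMIs were divided between granulocytes (34.7% to 79.2%) and macrophages (18.4% to 60.9%).

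Lcn2 in tumour cells did not follow the order from Clone E to Clone M. Its log2 ratio of Clone M over Clone E was −0.47 (95% Poisson interval −0.53 to −0.41, which here as elsewhere covers counting error only), and that of Clone EM3 over Clone E was −0.95 (−1.02 to −0.88); both comparisons use the same Clone E library. Lcn2 did not reach a log2 ratio of 1 in size in either comparison. In Clone M, 6.62% of 5530 genes were that much higher and 8.23% that much lower. In Clone EM3, 3.78% of 5311 genes were higher and 6.82% lower. Only Lcn2 reached the minimum of 50 CPM used for those calls. Saa1 and Saa2, at 1.05 CPM or less in these clones, could not reach that size with 10 CPM added to both sides. Saa3 had −0.59 for Clone EM3 over Clone E, but passed 1 in size with 1 CPM added. Saa3 stood at 15.9 CPM in Clone E, 23.3 in Clone M and 7.23 in Clone EM3, and the Clone E value equalled 1.03 times the amount scaled from granulocytes. Clone E tumour cells also held 62.0 CPM of Ltf and 620 CPM of S100a8, and the part of granulocyte RNA in their levels was not tested.

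Lcn2 varied strongly from one tumour cell to the next. Between 20.1% (Clone EM2) and 45.4% (Clone EM1) of tumour cells had 5 or more Lcn2 UMIs. By the median log2 ratio of those cells over the rest, 0.224% of 4906 genes were higher by 1 or more and 0.448% lower, and Mki67 was among the latter, lower in all 6 tumours. Mki67, a marker of cycling cells, stood at 5.50 against 63.5 CPM in Clone E, 24.96 against 73.03 in Clone EM1, 65.2 against 145 in Clone EM2, 23.8 against 80.9 in Clone EM3, 37.9 against 123 in Clone M and 44.8 against 127 in parental 4T1. The median log2 ratio was −1.37 (−2.25 to −1.05), and also −1.37 when the cells were split after thinning to 1000 UMIs. Ccnb2 (−1.39), Top2a (−1.36) and Ube2c (−1.26), like Mki67 chosen after their values were seen, were also among the lowest.

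Of the 24 other acute-phase genes, 3 reached 50 CPM in this comparison, and 2 of them, C3 (complement component 3) and Cp (the ferroxidase ceruloplasmin), were higher by 1 or more in the same cells. C3 had a median log2 ratio of 1.45 (1.20 to 2.26), and Cp of 1.09 (0.76 to 1.44), while Cd14 had 0.06 (−0.40 to 0.47). Of 17 inducers and transducers, Il6 alone passed 1 (1.02, 0.08 to 1.59). At the median, C3 (105 against 22.0 CPM) and Il6 (63.5 against 31.3) reached 50 CPM only in the Lcn2-high cells. That favours this direction for both genes. Cebpd, which encodes C/EBP delta, had 0.43 to 0.91 in 5 tumours and −0.49 in Clone E. Outside the lists chosen for the report, Ccn5 (1.89) and Serpine2 (1.49) led, the latter spanning −0.09 to 1.87. Granulocyte markers also summed higher in the Lcn2-high cells in 6 of 6 tumours (112 to 2082 CPM against 93.1 to 1016), as did fibroblast markers (216 to 480 against 177 to 278), and the part of such RNA in these differences was not tested. Epithelial markers summed higher in the Lcn2-high cells in 1 of 6 tumours (1542 to 12850 CPM against 2363 to 9899). The split rests on UMI counts, and median depth was higher in the Lcn2-high cells in 5 of 6 tumours (9066 against 5466 UMIs in Clone E, 13220 against 13230 in Clone M).

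**Figure D3:**
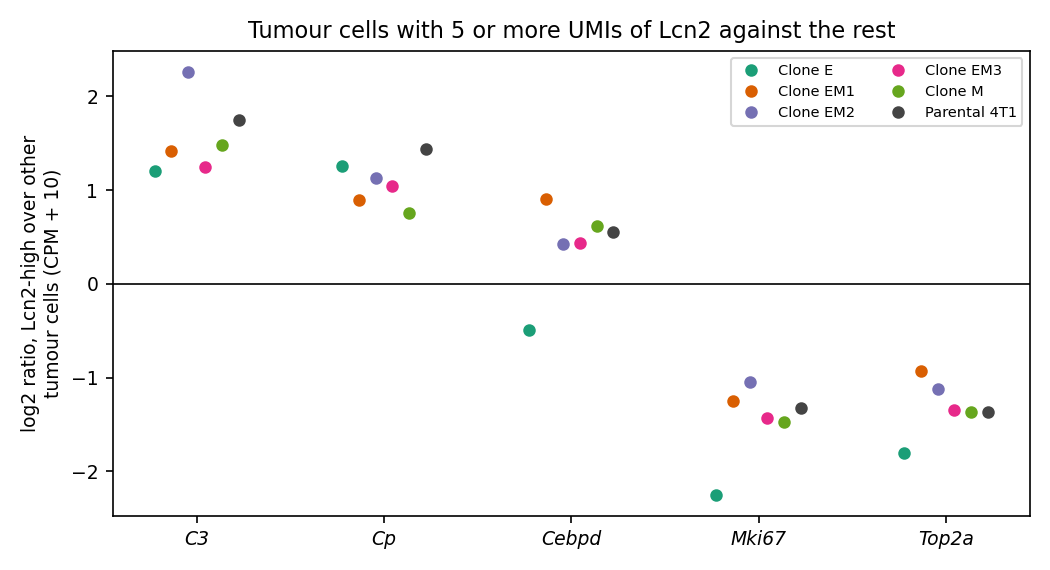
Log2 ratio (y axis, with 10 CPM added) of 5 genes in tumour cells with 5 or more Lcn2 UMIs over the other tumour cells, with 1 point per tumour. C3 and Cp lie above 0 in 6 tumours, Mki67 and Top2a lie below 0 in 6, and Cebpd is below 0 only in Clone E (−0.49).

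Saa3 was most abundant in fibroblasts and next in granulocytes. In fibroblasts it stood at 504 CPM in Clone E, 6236 in Clone EM1, 1873 in Clone EM2, 2324 in Clone EM3, 8841 in Clone M and 1975 in parental 4T1 (median 2150). In granulocytes it stood at 1145, 589, 347, 1461, 1294 and 613 CPM in the same order (median 879). The log2 ratio of fibroblasts over granulocytes had a median of 2.04 (−1.17 to 3.38) and was positive in 5 of 6 tumours, the exception being Clone E. A median of 20.3% of fibroblasts (10.4% to 32.8%) and 15.7% of granulocytes had a Saa3 UMI after thinning to 500 UMIs (36.3% and 20.3% unthinned), against 1.75% of T/NK cells, whose median depth was 1098 to 2090 UMIs, and 1.95% of macrophages.

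Fibroblast Saa3 differed widely between tumours, and its log2 ratio lay above those of 99.98%, 99.85% and 99.44% of the genes compared in the 3 pairs of clones that follow. The log2 ratio was 4.11 for Clone M over Clone E (interval 3.94 to 4.27), where 2.22% of 4498 genes were higher and 9.09% lower by 1 or more. It was 2.18 for Clone EM3 over Clone E (1.97 to 2.40), where 1.83% of 4590 genes were higher and 5.77% lower, and 1.73 for Clone EM1 over Clone EM2 (1.63 to 1.83), where 2.21% of 3752 genes were higher and 1.84% lower. These classes were small, from 52 cells in Clone EM1 to 257 in parental 4T1, and a few cells carried most of the UMIs. The top 10% of the fibroblasts by Saa3 held 76.5% to 92.8% of its UMIs, and the single highest Clone EM1 cell had 897 of 2126. Without the highest cell of each tumour, the log2 ratios were 4.34, 1.75 and 1.18. In Clone E, macrophage and granulocyte markers were raised in the fibroblast class (7834 and 2279 CPM), and their part in its low Saa3 was not tested.

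Saa3 was lower in the pericyte-like cells than in the other cells of the fibroblast class in 6 of 6 tumours. Cells with 500 CPM or more of Rgs5, Notch3, Des and Mcam, which mark mural cells of small vessels, made up 12.5% to 33.3% of the class and had 0 CPM of Saa3 in Clone E, 30.5 in Clone EM1, 8.49 in Clone EM2, 180 in Clone EM3, 38.6 in Clone M and 13.4 in parental 4T1. The remaining cells had 580.5, 7712, 2058, 2921, 10420 and 2092 CPM in the same order. The 0 in Clone E rests on 23 cells, for which the upper Poisson bound is 40.1 CPM. These 4 genes were chosen after Rgs5, Notch3, Des and Mcam were seen to be lowest in fibroblasts with 5 or more Saa3 UMIs, so the division is a description. Fibroblast markers were also lower in the pericyte-like cells, at 11960 to 27970 CPM against 79490 to 189000.

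**Figure D4:**
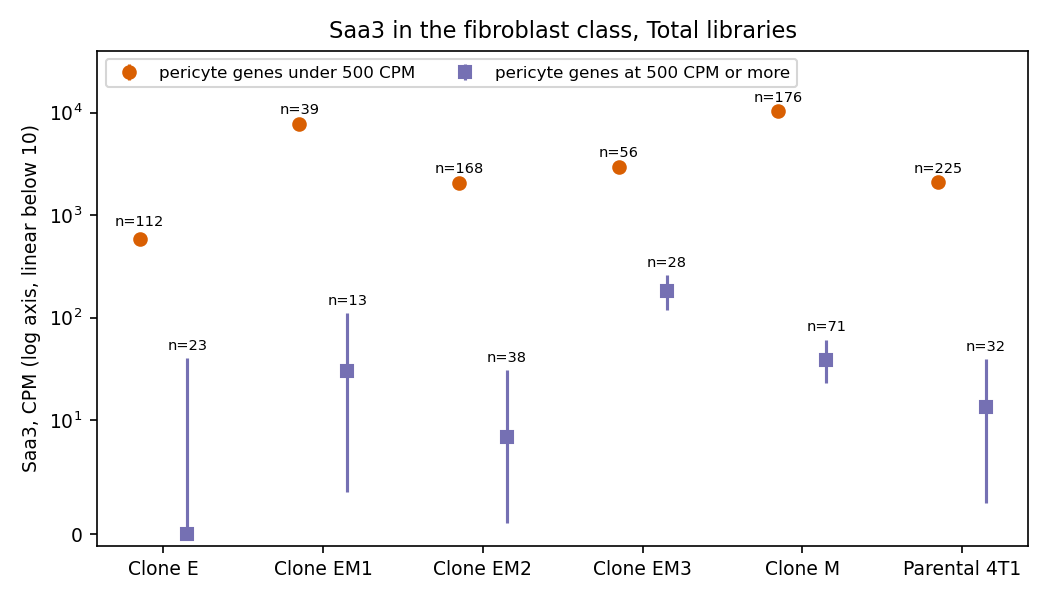
Saa3 CPM (y axis, log scale above 10) in fibroblast-class cells with pericyte genes under 500 CPM (circles) and at 500 CPM or more (squares) for each tumour; bars are 95% Poisson intervals and n is the number of cells. In all 6 tumours the squares lie below the circles, at 0 to 180 CPM against 580.5 to 10420 CPM.

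Fibroblasts with 5 or more Saa3 UMIs were 14.8% to 37.7% of the class. By the median log2 ratio over the rest, 3 of the 10 other acute-phase genes with 50 CPM were higher by 1 or more and none lower, where 0.438% of 3881 genes were higher and 1.55% lower; the remaining 7 had medians of 0.26 (Il1rn) to 0.85 (Hp), and 5 of those 7 were negative in at least 1 tumour. Lbp, the lipopolysaccharide-binding protein, had a median log2 ratio of 2.10 over the rest (−0.18 to 2.53), Serpina3n, an acute-phase protease inhibitor, 1.94 (0.96 to 2.38), and C3 1.48 (0.96 to 2.16). Of genes outside the chosen lists, named after their values were seen, Serpinb2 (2.10), the chemokine Cxcl12 (1.98) and chemerin, Rarres2 (1.74), were higher in all 6 tumours. Lcn2 itself was 1.05 higher at the median, but ranged from −2.01 to 1.67. Hp ranged more widely, from −1.41 in Clone E to 6.11 in Clone EM2. The adipocyte markers Adipoq and Cidec had 34 and 65 UMIs in the high cells of Clone EM2 against 0 and 0 in the rest. In Clone M they had 3 and 5 UMIs in the high cells against 17 and 32. High cells averaged more UMIs in 6 of 6 tumours (for instance 6579 against 4929 in Clone E), and macrophage markers were higher in 3 of 6 (8573 against 2486 CPM in Clone EM3). In Clone E the high cells had fewer fibroblast markers (41050 against 78160 CPM) and more tumour-cell markers (1649 against 513). The part of depth and of other cells' RNA was not tested.

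Macrophages had a low level of Saa3. The level was 135 CPM in Clone E, 41.4 in Clone EM1, 46.1 in Clone EM2, 68.9 in Clone EM3, 90.3 in Clone M and 40.5 in parental 4T1, and in the CD45 libraries 172, 35.3, 43.9, 88.6, 81.3 and 48.3 CPM. Clone E was highest and Clone EM3 or M next in both kinds of library. The Total levels were 1.27 to 2.30 times the amount scaled from granulocytes and tumour cells, a range that overlapped the 0.694 to 3.28 of T/NK cells. The CD45 levels were 0.897 to 2.5 times the amount scaled from granulocytes alone, above it in 5 of 6 tumours. Neither amount includes RNA from fibroblasts, the class with the highest median Saa3 level, so an excess over it does not exclude carried-over RNA. In the Total libraries, 0.756% to 4.32% of macrophages had 5 or more UMIs. There, the ratio of Saa3 to Lcn2 UMIs was 1.08 to 3.46 in macrophages, against 0.0624 to 0.614 in granulocytes and 8.59 to 85.8 in fibroblasts. The CD45 libraries had a ratio of 3.03 to 10.6 in macrophages, which overlapped the fibroblast range, and 0.122 to 0.776 in granulocytes. Macrophage Lcn2 in the CD45 libraries was 0.204 to 1.25 of the Total value, higher in 1 of 6 tumours. In 5 tumours, 10 or more Total macrophages had 5 or more Saa3 UMIs. Of 4050 genes, 0.593% were higher in those cells by a median log2 ratio of 1 or more over these tumours and 0.148% lower. Of the lists, 2 of 6 other acute-phase genes and 4 of 5 granule genes were higher. Of these granule genes, Chil3 (109 against 15.1 CPM) and Mmp8 (57.8 against 15.8) reached 50 CPM at the median only in the Saa3-high cells. That favours this direction for them. In the same tumours, Lrg1 (2.27), Ly6c2 (1.63) and Plac8 (1.47), genes of blood-derived monocytes and neutrophils chosen here after their values were seen, were higher in the Saa3-high cells, as were Chil3 (1.65), C3 (1.54) and Hp (1.50). Genes outside the monocyte and neutrophil group, chosen in the same way, were also higher in the Saa3-high cells at the median. They were Ccl8 (1.87), Fcna (1.31) and Cd163 (1.14, from −0.35 to 2.36). Granulocyte markers summed higher in those cells in 5 of these 5 tumours (1059 to 4622 CPM against 425 to 1368), and their part was not tested.

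Saa3 in tumour cells was low except in Clone EM1, at 15.9 CPM in Clone E, 210 in Clone EM1, 21.5 in Clone EM2, 7.23 in Clone EM3, 23.3 in Clone M and 16.1 in parental 4T1. In the thinned cells a median of 0.829% had a UMI, and 4.04% in the highest tumour. Tumour cells held 66.6% of all Saa3 UMIs of the Clone EM1 Total library, where fibroblasts were 0.797% of cells, and a median of 8.50% over the 6 tumours. Fibroblasts held a median of 46.1% (4.72% to 73.4%), granulocytes 12.1% and macrophages 10.2%.

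Saa1 and Saa2 were found mainly in Clone EM1 tumour cells. There they stood at 48.2 CPM (1287 UMIs) and 66.3 CPM (1771 UMIs). The other tumours had 0.105 to 2.10 CPM of Saa1 and 0.105 to 1.40 CPM of Saa2 in tumour cells; Clone E rested on 2 and 1 UMIs and Clone EM3 on 3 and 3. Clone EM1 stood apart for both genes, while Clone EM2 (106 and 70 UMIs), Clone M (68 and 40) and parental 4T1 (72 and 121) were low but above the floor of 3 UMIs. Outside tumour cells Saa1 reached 9.29 CPM at most in the Total libraries (5 UMIs, Clone EM1 granulocytes), and the Saa2 value above 10 CPM, in Clone EM3 B cells, was 1 UMI. In the CD45 libraries Saa1 had 0 UMIs in T and B cells and at most 2.28 CPM in granulocytes, and its highest class value was 19.1 CPM (5 UMIs, T/Myeloid Hybrid cells of Clone EM3). Hepatocyte markers (Alb, Apoa1, Ttr) summed to 0.854 to 6.59 CPM in tumour cells, and Saa4 stood at 3.86 CPM or less in every class and tumour.

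All 4 genes were higher in tumour cells of Clone EM1 than of Clone EM2, 2 tumours inferred from their barcodes to share a capture well. The log2 ratios were 2.26 for Saa1 (interval 2.15 to 2.38), 2.74 for Saa2 (2.64 to 2.84), 2.81 for Saa3 (2.71 to 2.90) and 1.89 for Lcn2 (1.85 to 1.93), where 1.86% of 5121 genes were higher by 1 or more and 1.11% lower. Saa2, Saa3 and Lcn2 passed the minimum of 50 CPM and Saa1, at 48.2 CPM, lay just under it. The 10 CPM added to both sides makes the ratios of Saa1 (48.2 against 2.10 CPM) and Saa2 (66.3 against 1.39 CPM) smaller than with 1 CPM added. Without the cells that had 5 or more Saa1 and Saa2 UMIs, the ratios were 0.33, 0.50, 1.78 and 1.75. Those cells were picked by Saa1 and Saa2, so the drop in the first 2 ratios follows from the choice. In the remaining Clone EM1 tumour cells Saa3 stood at 88.0 CPM and Lcn2 at 1004 CPM, against 210 and 1132 in all of them and 21.5 and 299 in Clone EM2. Among other acute-phase genes, Lbp stood at 163 CPM in Clone EM1 and 3.04 in Clone EM2 (log2 ratio 3.73), while C3 (0.48), Cp (0.62) and Cd14 (−0.28) differed by less than 1. Among 17 inducer and transducer genes with 50 CPM, Il6 was higher (1.28) and Cebpd lower (−1.33), and the median was −0.0043, against −0.021 over all genes.

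The Saa1 and Saa2 transcripts of Clone EM1 sat in few cells. Of 2825 tumour cells, 112 (3.96%, Clopper-Pearson 95% interval 3.28% to 4.75%) had 5 or more UMIs of the 2 genes, and they held 93.7% of those UMIs, with up to 178 in a cell. Clone EM2 had 6 such cells, parental 4T1 7, Clone M 3, and Clones E and EM3 none, which allows shares of up to 0.477% and 0.191% by the same interval. In Clone EM1, 79 cells had UMIs of both genes, and 61 of the 112 also had 5 or more of Saa3. After thinning to 500 UMIs, 1.74% of Clone EM1 tumour cells had a Saa1 UMI and 2.05% a Saa2 UMI (4.74% and 6.09% unthinned). The median depth of the Saa-high cells was 9320 UMIs against 9714 in the rest. Epithelial markers summed to 4024 against 4704 CPM, granulocyte markers to 64.0 against 104 (2 of 5 at 0) and macrophage markers to 141 against 139 (1 of 6 at 0). Fibroblast markers summed to 466 against 240 CPM, with none of the 6 at 0, and their part was not tested; Clone EM1 fibroblasts themselves had 0 UMIs of Saa1 and of Saa2.

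Saa3, Lcn2 and 3 of the 5 other acute-phase genes with 50 CPM in either group were higher in the Saa-high cells than in the other Clone EM1 tumour cells. By the choice of cells Saa2 stood at 1531 against 4.68 CPM and Saa1 at 1125 against 2.89. Saa3 stood at 3119 against 88.0 CPM and Lcn2 at 4165 against 1004. Of 5063 genes, 1.3% were higher by a log2 ratio of 1 or more and 0.889% lower. Of other acute-phase genes, Ptx3, a pentraxin (103 against 6.43 CPM), Lbp (834 against 135) and C3 (281 against 75.9) were past that ratio. Of inducers and transducers, Il6 (393 against 80.2), Lifr, the leukaemia inhibitory factor receptor (150 against 37.2), and Cebpd (503 against 163) were, 3 of 18, and of 2 receptor genes none was. Of 2 granule genes, Mmp9, the gelatinase B gene, was lower (6.49 against 147 CPM, log2 ratio −3.25) and by more than any other of the genes compared, while S100a8 stood at 41.7 against 53.1. Of 3 iron genes, Hmox1, heme oxygenase 1, was higher (1111 against 476). A gene could reach 50 CPM through 1 group alone, which favours that direction for it. Ptx3 and Lifr did so through the Saa-high cells, and Mmp9 and S100a8 through the rest.

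Genes outside the acute-phase, inducer, receptor, granule and iron lists, chosen after their values were seen, also differed. The chemokine Cxcl5 (1248 against 185 CPM), the complement genes Cfb (83.5 against 14.6) and C4b (445 against 114) and the collagenase gene Mmp13 (1126 against 272) were higher. Epcam, an epithelial adhesion gene (45.5 against 144), Socs1, an inhibitor of cytokine signalling (37.1 against 133), Ccnd1, cyclin D1 (145 against 376), and Areg, amphiregulin (65.9 against 525), were lower, as were the cycling genes Mki67 (18.6 against 50.8) and Mcm5 (12.1 against 52.6). Epcam was the only 1 of the 6 epithelial markers lower by a log2 ratio of 1 or more, and the median of the 6 was −0.246. Cells were chosen by Saa1 and Saa2 counts within 1 tumour, so these values describe that tumour and have no replicate. In the 4 tumours with 10 or more tumour cells that had 5 or more Saa3 UMIs (37 to 148 cells), 0.506% of 4945 genes were higher by a median log2 ratio of 1 or more and 0.0607% lower, and the genes highest beside Saa3 were Saa2 (2.82, from 0.86 to 4.75), Lcn2 (2.37, from 1.86 to 3.04), Cxcl5 (2.31, from 0.25 to 2.66) and Saa1 (2.25, from 0.40 to 3.88). The low ends for Saa1 and Saa2 are those of Clone M, where 3 and 6 UMIs in 37 such cells gave 4.56 and 9.12 CPM. Granulocyte markers also summed higher in the Saa3-high cells in 3 of these 4 tumours (58.6 to 1986 CPM against 105 to 508), the exception being Clone EM1. Fibroblast markers summed higher in 4 of 4 (297 to 582 CPM against 205 to 324.5), and the part of either was not tested.

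**Figure D5:**
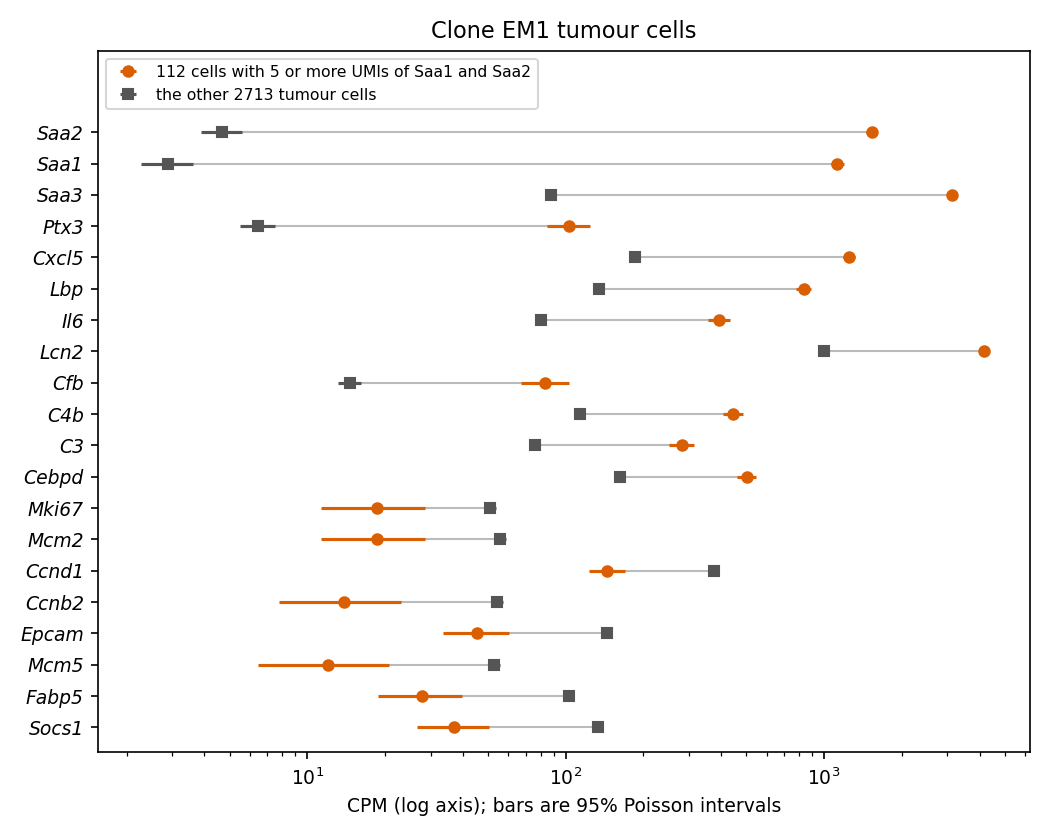
CPM (x axis, log scale) of 20 genes in Clone EM1 tumour cells with 5 or more Saa1 and Saa2 UMIs (circles) and in the other Clone EM1 tumour cells (squares); bars are 95% Poisson intervals. Saa3 moves from 88.0 to 3119 CPM and Il6 from 80.2 to 393, while Epcam drops from 144 to 45.5 and Mki67 from 50.8 to 18.6. Of the 6 epithelial markers, only Epcam was lower by a log2 ratio of 1 or more.

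The known inducers, transducers and receptors of the family were spread over several of the 8 named classes. Of 24 inducer and transducer genes, 22 reached 50 CPM in a class; 6 of them were highest in fibroblasts (Il6 with a median of 1373 CPM, Lif, Il11, Osmr, Il1r1, Nfkbiz), 5 in granulocytes (Tnf, Il6ra, Il17ra, Tnfrsf1a, Cebpb), 3 in macrophages (Il1a, Osm, Socs3), 3 in endothelial cells (Il6st, Lifr, Cebpd), 2 in dendritic cells (Il1b, Nfkb1), 2 in tumour cells (Csf3, 2240 CPM, and Rela) and 1 in T/NK cells (Stat3). Il1b was highest in dendritic cells (6581 CPM) and next in granulocytes (3880 CPM). Of 24 other acute-phase genes, 11 reached 50 CPM; 4 were highest in fibroblasts with Saa3 (C3 1190, Ptx3 1373, Lbp 534, Serpina3n 445 CPM), 5 in granulocytes (Hp 730, Cd14 7945, Pglyrp1 646 CPM, Steap4, Il1rn), 1 in endothelial cells (Serpina3g 107 CPM), and Cp in tumour cells (708 CPM). The receptor of serum amyloid A on neutrophils, Fpr2, was highest in granulocytes (1189 CPM) and Tlr2 in macrophages (613 CPM). The lipocalin-2 receptor genes were low: Slc22a17 had a median of 16.6 CPM in fibroblasts, its highest class, and Lrp2 and Mc4r of 0.753 and 1.06 CPM. All 10 of the 14 neutrophil granule genes with 50 CPM were highest in granulocytes, as Lcn2 was. Of 7 iron genes in the tables, 6 reached 50 CPM, and 3 of them, Fth1, Slc40a1 and Slc11a1, were highest in granulocytes.

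In tumour cells, 4 of 24 listed acute-phase genes and 4 of 14 granule genes reached 50 CPM in either clone of a pair with Clone E. Those few were mostly lower in Clones M and EM3 than in Clone E. A gene could reach that minimum through 1 clone alone, as C3 did through Clone E, which favours this direction for such genes. Of 4 acute-phase genes with 50 CPM, Clone M was lower by a log2 ratio of 1 or more in C3 (30.1 against 388 CPM, −3.31), Cd14 (−1.92) and Il1rn (−1.40) and higher in Cp (1228 against 514 CPM, 1.24). Clone EM3 was lower in C3 (14.2 CPM, −4.04), Il1rn (−1.71) and Cd14 (−1.37), while Cp differed by 0.57. Of 18 inducers and transducers, 4 were higher and 3 lower in Clone M, where 6.62% of all genes were higher and 8.23% lower, and 2 were higher and 3 lower in Clone EM3, where 3.78% and 6.82% were. The granule genes were lower in 3 of 4 in Clone M and in 4 of 4 in Clone EM3, with medians of −1.43 and −2.33 against 0.11 and 0.02 over all genes. Granulocyte markers in Clone E tumour cells, at 1429 CPM, moved with these values, and their part was not tested.

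Across 48 combinations of named class and tumour, 8926 genes were ranked by Pearson correlation of log2(CPM + 10) with a member, as a description of points that share libraries and classes. Saa3 was most like Igfbp6 (0.922), Gpc3 (0.912), Pi16 (0.883) and C3 (0.854). Igfbp6 encodes a binding protein of insulin-like growth factors and Pi16 marks a population of adventitial fibroblasts. A further feature, at 0.846, is listed only under a deprecated identifier. Lcn2 was most like Sgms2 (0.895), Tmem40 (0.866), Mapk13 (0.858), Echdc3 (0.853) and Syne1 (0.846). Saa2 reached 50 CPM only in Clone EM1 tumour cells (66.3 CPM), so its correlations rest on that 1 combination and no gene is named from them. Saa1 did not reach 50 CPM in any combination and was not ranked. Saa3 and Lcn2 had a correlation of 0.354 with each other.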

How the data were processed

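Single cells of 6 dissociated tumours were profiled in 12 libraries. The authors deposited UMI counts that were neither normalised nor pooled, and a class name for each cell. They also deposited the percent of mitochondrial UMIs of each cell, which was not used here. Per the submitters' processing notes, Cell Ranger and mm10 were used. Per the labels' protocols, cells were fixed with a fixed-RNA kit and libraries made with 3′ reagents; probe capture or 3′ counting is not settled by these. The lowest number of genes in a cell was 250 to 650 across the Total tables and 200 to 300 across the CD45 tables.

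Doublets were called with Scrublet (scanpy 1.11.5; 2 simulated doublets per cell, expected rate 6%, 2000 variable genes, 30 principal components) and removed: 3014 of 115612 cells (2.61%; 1.04% to 3.88% per library), leaving 112598. Counts were summed over the cells of a class of at least 30 cells, scaled to CPM, and compared as log2(CPM + 10) without tests, since each group is 1 tumour; a ratio of 1 in size counted as a call among genes with 50 CPM in either group. The code was tested on simulated data. Intervals of levels and shares are exact (Poisson or Clopper-Pearson, 95%). Those of log2 ratios join opposite ends of the intervals of the 2 levels, so they are not 95% intervals of the ratio. Members and lists were chosen with earlier results of these data known. Genes named are the members, the 5 most correlated with Saa3 and with Lcn2, the listed inducers, acute-phase, receptor, granule and iron genes, and others said to be chosen from their values. UMIs are not independent of cell capture. RefSeq and GENCODE (GRCm38) gave sequences and positions.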

Additional observations from a re-analysis of the deposited data

How the results depend on the processing

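No paired analysis was possible because each clone is 1 tumour and the labels carry no replicate numbers that pair clones; classes of a tumour, and its Total and CD45 libraries, were compared within each tumour. Over 148 alternatives to 28 results, 101 stayed within the main value's interval or spread and 47 moved beyond it. A reversal was counted only for log2 ratios of 1 or more in size, and 0 of those reversed. Smaller ratios and shares could not be counted as reversed. Among them, Saa1 in granulocytes over fibroblasts had no settled sign (median −0.0093, positive in 3 of 6 tumours). Shares of 2 classes count there as separate results, so the turned order of Lcn2 shares in granulocytes and tumour cells is not among the reversals. The alternatives for Clone EM1 over Clone EM2, for the granulocyte and Mki67 splits and for the fibroblast ratios were chosen after seeing the data. With 1 CPM added in place of 10, Clone M over Clone E gave 0.563 for Saa1 and 0.438 for Saa2, Clone EM3 over Clone E −0.329 for Saa1 and −1.04 for Saa3, Clone EM1 over Clone EM2 3.99, 4.82 and 3.23 for Saa1, Saa2 and Saa3, and tumour cells over fibroblasts 0.29 for Saa2. With the CPM of single cells averaged, Lcn2 gave −0.123 for Clone M over Clone E, −0.703 for Clone EM3 over Clone E, 1.8 for Clone EM1 over Clone EM2 and 1.56 for granulocytes over tumour cells; Saa3 gave 1.64 for fibroblasts over granulocytes, and 3.78 and 1.34 in fibroblasts of Clone M over E and EM1 over EM2. With at least 650 genes per cell, Lcn2 gave 2.73 for granulocytes over tumour cells. Leaving out each tumour in turn, that median ranged from 1.88 to 2.94, and Saa3 in fibroblasts over granulocytes from 1.67 to 2.4. Without Saa-high cells, Clone EM1 over EM2 gave 0.332, 0.497, 1.78 and 1.75 for Saa1, Saa2, Saa3 and Lcn2. Without the highest fibroblast of each tumour, Saa3 gave 4.34, 1.75 and 1.18 for Clones M over E, EM3 over E and EM1 over EM2, and 1.9 for the last without pericyte-like cells. At 1000 UMIs per cell and unthinned, shares with a UMI were 53.9% and 48.4% (Lcn2, granulocytes), 23.3% and 57.5% (Lcn2, tumour cells), 23.7% and 36.3% (Saa3, fibroblasts), 19.2% and 20.3% (Saa3, granulocytes), and 2.78% and 6.09% (Saa2, Clone EM1 tumour cells); unthinned Saa1 was 4.74% there. Why these values moved was not tested. Depth limits Saa1 and Saa2 in tumour cells of Clones E and EM3, where the level rests on 1 to 3 UMIs.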

Other observations

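In the CD45 libraries, cells the authors named T/Myeloid Hybrid had 88.0 to 500 CPM of Lcn2 and 73.5 to 394 CPM of Saa3 in 5 tumours, between granulocytes and all other classes by their medians (238 and 296 CPM). Granulocyte markers summed to 14015 to 23960 CPM in that class. The mast cell genes Tpsab1, Tpsb2 and Mcpt2 were lower in macrophages with 5 or more Saa3 UMIs than in other macrophages of 5 tumours. Tpsab1 had a median log2 ratio of −4.44 (−5.05 to −1.63), at a median of 3.49 against 284 CPM. Tpsb2 had −2.90 (−3.48 to −0.16) and Mcpt2 −2.53 (−4.28 to −0.38), so both were close to no difference in at least 1 tumour. Saa1 had 25 UMIs (8.13 CPM) in Clone M fibroblasts, and at most 3 in fibroblasts of the other tumours. In Clone M, 23 of these UMIs were in the 93 fibroblasts with 5 or more Saa3 UMIs. Whether Saa3 transcripts were counted as Saa1 there was not tested. These genes and classes were chosen after their values were seen.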
